A study of Mus musculus with 4 samples.

Results

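The cyclic nucleotide channels and calcium exchangers of photoreceptors were examined in *rd7* and wild-type mouse retinas. The genes were chosen by symbol and not by measured values, as rod and cone channel subunits, sodium/calcium-potassium exchangers and an inner segment potassium channel subunit. They are *Cnga1*, *Cngb1*, *Cnga3*, *Cngb3*, *Slc24a1*, *Slc24a2*, *Slc24a4* and *Kcnv2*. Of these 8 genes, 7 stand under their own symbol among the 22095 loci of the expression table, and all 7 were among the 12655 genes tested. The 4 libraries held polyA RNA of whole retinas from mice 3 weeks old, 2 from *rd7* mice and 2 from wild-type mice, and each pooled 8 retinas of 2 females and 2 males. The *rd7* mice carry a mutation of *Nr2e3*, which encodes a transcription factor of rod development, and were labelled with the same strain, C57BL/6J, as the wild-type mice. The comparison asks how these genes differ in a retina whose rods are known as rod/cone hybrids.

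In darkness, cyclic GMP holds open the channels of the photoreceptor outer segment, and sodium and calcium flow in. Light activates a phosphodiesterase that lowers cyclic GMP, so that the channels close, while the exchangers go on removing calcium in return for sodium. Rods and cones build the channel from different alpha and beta subunits and are known to differ in the exchanger they use. Voltage-gated potassium channels of the inner segment carry the current back out of the cell.

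Of the 7 genes, 4 were higher in *rd7* retinas (*Cnga3*, *Cngb3*, *Slc24a2* and *Slc24a4*) and 2 were lower (*Cnga1* and *Slc24a1*), while *Kcnv2* was not called. These calls are from limma on log2(FPKM + 0.1) with an FDR (false discovery rate) threshold of 5% over all genes tested, where FPKM is the number of sequenced fragments per kb of transcript, scaled to the mapped fragments of the library. The pseudocount of 0.1 makes fold changes of low genes smaller than they are. Among all genes tested, 37.6% were called higher and 8.80% lower. The median log2 fold change of the 7 genes was 0.61, with 0.15 for all genes. Because that median shifts when the libraries are scaled to each other, the calls were repeated with median-ratio scaling, in which 19.7% of all genes were higher and 19.6% lower. They were also repeated with an adjustment for the GC content and length of exons, in which 12.3% were higher and 14.9% lower. Under each of these, the same 4 genes were called higher and the same 2 lower. For each of the 7 genes the mutant and wild-type values did not overlap, and neither did those of 76.6% of all genes tested.

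**Figure D1:**
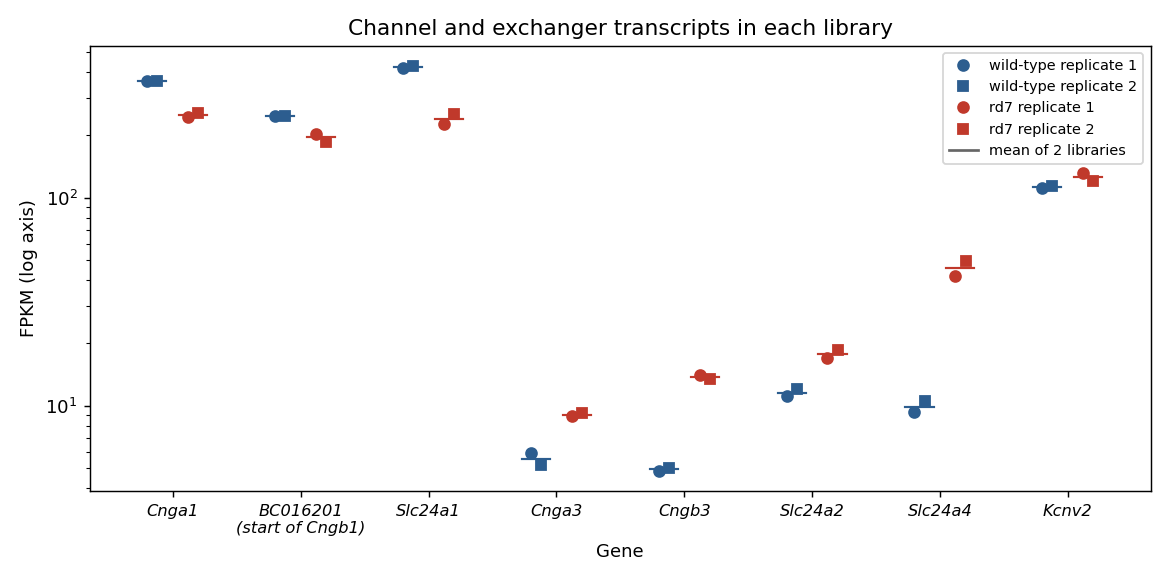
FPKM on a log axis of each gene in each of the 4 libraries, with circles for replicate 1, squares for replicate 2 and a line at the mean of 2 libraries. *Cnga1* and *Slc24a1* sit above 360 in wild-type and at or below 253.7 in *rd7* libraries, while *Slc24a4* rises from about 10 to over 42.

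The labels were checked first on the mutated gene. *Nr2e3* measured 2493 and 1589 FPKM in mutant pools and 384.5 and 394.1 FPKM in wild-type pools, so the libraries of the mutant stood apart in its transcript, and differed from each other by more than those of the wild-type. FPKM does not tell normal from abnormal splicing of this transcript. Photoreceptor markers were abundant in all libraries. The worth of 1 read, estimated from the low values, gave between 3.53e+07 and 3.69e+07 reads per library, and between 708 and 82429 reads behind each value of the 7 genes. With whole retinas, fewer cells of a type and less RNA per cell cannot be told apart.

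*Cngb1*, the rod beta subunit, has no value of its own here. Its RefSeq start nevertheless falls on a listed locus. The promoter window that RefSeq gives for *Cngb1* matched mm9 at 1 place, on the minus strand of chromosome 8, with its start at base 97830485. This is the first base of *BC016201*, which spans 97814494 to 97830485 in the table. The annotation of the same build places the rest of *Cngb1*, from 97762945 to 97808081, downstream on the same strand as a separate gene. RefSeq lists Garp2 among the other names of *Cngb1*. GARP2 is a soluble glutamic acid-rich protein of rods that is made from the first part of this gene, and the full-length beta subunit carries the same region. The values of *BC016201* may thus hold reads of either transcript, and they are given beside those of the channel and not counted among the 7 genes. This locus was chosen after the table had been read.

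Promoter windows were available in the RefSeq table (GRCm38.p6) for 6 of the 8 genes. The 250 bases before the start are printed for both alpha subunits, for the exchangers that fell and rose most, and for *Cngb1*, whose window ties it to *BC016201*. They were searched on both strands for TAATCC, a core site of the photoreceptor factor CRX, for AAGTCA, a core site of NR2E3, and for TGCTGA, found in sites of the rod factor NRL. Capitals mark the matches, and none of them overlap.
*Cnga1* (chr5:72642753-72643002, minus strand): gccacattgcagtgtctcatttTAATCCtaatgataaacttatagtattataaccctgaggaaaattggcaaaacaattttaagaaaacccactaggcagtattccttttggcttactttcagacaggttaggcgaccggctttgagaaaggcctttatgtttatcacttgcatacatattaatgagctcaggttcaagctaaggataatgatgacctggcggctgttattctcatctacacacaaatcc
*Cngb1* (chr8:95306586-95306835, minus strand): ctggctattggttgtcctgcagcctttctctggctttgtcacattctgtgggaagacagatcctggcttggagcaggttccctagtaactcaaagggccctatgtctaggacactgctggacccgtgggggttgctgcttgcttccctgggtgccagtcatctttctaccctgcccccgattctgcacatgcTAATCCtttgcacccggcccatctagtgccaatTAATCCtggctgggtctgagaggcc
*Slc24a1* (chr9:64951621-64951870, minus strand): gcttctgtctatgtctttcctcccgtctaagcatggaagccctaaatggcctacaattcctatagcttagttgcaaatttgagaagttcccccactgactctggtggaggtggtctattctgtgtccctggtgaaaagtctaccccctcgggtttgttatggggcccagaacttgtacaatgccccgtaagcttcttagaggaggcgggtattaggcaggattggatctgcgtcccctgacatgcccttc
*Cnga3* (chr1:37218955-37219204, plus strand): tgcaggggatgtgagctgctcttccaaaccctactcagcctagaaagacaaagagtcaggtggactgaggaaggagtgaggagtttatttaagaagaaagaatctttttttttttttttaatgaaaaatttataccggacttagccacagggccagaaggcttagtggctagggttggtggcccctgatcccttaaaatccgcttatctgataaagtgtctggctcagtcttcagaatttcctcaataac
*Slc24a4* (chr12:102128477-102128726, plus strand): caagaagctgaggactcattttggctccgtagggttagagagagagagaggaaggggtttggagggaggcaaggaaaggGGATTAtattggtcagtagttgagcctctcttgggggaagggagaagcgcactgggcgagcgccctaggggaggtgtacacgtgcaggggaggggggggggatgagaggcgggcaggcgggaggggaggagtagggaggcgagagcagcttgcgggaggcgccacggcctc

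The window of *Cngb1* holds TAATCC at 2 places, beginning 58 and 25 bases before the start, and that of *Cnga1* at 1 place, 228 bases before it. In the window of *Slc24a4* its reverse complement GGATTA begins 171 bases before the start. Of 32851 RefSeq windows of this length, 6.25% hold TAATCC on either strand, 13.1% AAGTCA and 16.1% TGCTGA. The windows printed for *Slc24a1* and *Cnga3* hold none of these letters. In *Slc24a2*, the window nearest to the listed locus holds none, and that of a second RefSeq start holds AAGTCA on the other strand, 37 bases before it. A match of letters is a description and not a site shown to be bound.

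The rod channel transcript was lower in *rd7* retinas. *Cnga1*, the rod alpha subunit, which forms the pore with the beta subunit, spans 72994936 to 73033991 on chromosome 5 (mm9). In the mutant pools FPKM reached 242.9 and 253.7, compared with 364.8 and 365.3 in the wild-type pools. The groups did not overlap, and the gap between them was far wider than that between libraries of a genotype. *Cnga1* fell by 0.56 on the log2 scale (standard error 0.049, 95% interval -0.68 to -0.44, adjusted p = 0.00123 from limma), so that its level was 1.47-fold higher in wild-type retinas. With the adjustment for GC and length it fell by 0.90. *BC016201*, at the start of *Cngb1*, measured 203.0 and 186.0 FPKM in mutant pools and 246.3 and 247.5 FPKM in wild-type pools. Both values of the mutant were again below those of the wild-type. It fell by 0.35 on the log2 scale (standard error 0.058, adjusted p = 0.00627 from limma). This call was lost without a filter on low FPKM (adjusted p = 0.0729 from limma), without WT replicate 1 (adjusted p = 0.0726 from limma) and without WT replicate 2 (adjusted p = 0.0644 from limma).

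The cone channel transcripts were higher in *rd7* retinas. *Cnga3*, the cone alpha subunit, lies on chromosome 1 from 37276106 to 37320229. FPKM was 8.89 in rd7 replicate 1 and 9.17 in rd7 replicate 2, against 5.88 and 5.16 in wild-type retinas. The mutant libraries were close to each other and lay above both wild-type libraries. It rose by 0.70 on the log2 scale (standard error 0.082, 95% interval 0.50 to 0.91, adjusted p = 0.00243 from limma). *Cngb3*, the cone beta subunit, lies on chromosome 4 from 19207997 to 19437770. In the mutant pools FPKM reached 13.95 and 13.42, compared with 4.86 and 5.02 in the wild-type pools. This subunit was thus 2.74-fold higher in the mutant, a rise of 1.45 on the log2 scale (standard error 0.061, adjusted p = 0.000188 from limma). The rise was larger than that of *Cnga3*, and the difference between the subunits was not tested. A pseudogene, *Gm11877*, is annotated on the same strand within the *Cngb3* locus.

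The exchangers moved in opposite directions. *Slc24a1* encodes NCKX1, the exchanger of rod outer segments, and lies on chromosome 9 from 64770668 to 64799414. FPKM was 224.8 in rd7 replicate 1 and 251.3 in rd7 replicate 2, against 417.6 and 428.4 in wild-type retinas. The groups stood well apart, with wild-type retinas 1.78-fold higher. It fell by 0.83 on the log2 scale (standard error 0.066, 95% interval -0.995 to -0.67, adjusted p = 0.000973 from limma), the largest fall among the 7 genes. The locus is on the same chromosome as *Nr2e3*, 4.97 Mb away, and the other 6 genes are on other chromosomes.

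*Slc24a2* encodes NCKX2, an exchanger of cones and of neurons, and lies on chromosome 4 from 86629030 to 86876444. In the mutant pools FPKM reached 16.87 and 18.47, compared with 11.08 and 12.01 in the wild-type pools. All values of the mutant were higher, and the spread within either genotype was smaller than the gap. It rose by 0.61 on the log2 scale (standard error 0.072, 95% interval 0.43 to 0.79, adjusted p = 0.0025 from limma), and with the adjustment for GC and length by 0.25 (adjusted p = 0.037 from limma).

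*Slc24a4* changed most. It encodes NCKX4, an exchanger known from olfactory neurons and also found in cones, and lies on chromosome 12 from 103367629 to 103504959. FPKM was 42.17 in rd7 replicate 1 and 49.67 in rd7 replicate 2, against 9.32 and 10.46 in wild-type retinas. The lower of the mutant libraries was still far above the higher of the wild-type libraries. The rise was 2.20 on the log2 scale (standard error 0.097, 95% interval 1.96 to 2.44, adjusted p = 0.000202 from limma) or 4.599-fold. Of all genes tested, 99.6% had a lower log2 fold change. An antisense transcript, *Gm16339*, is annotated over the start of this locus, and reads of the 2 strands cannot be told apart where the counting does not use strand, which is not given in the sources used here.

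**Figure D2:**
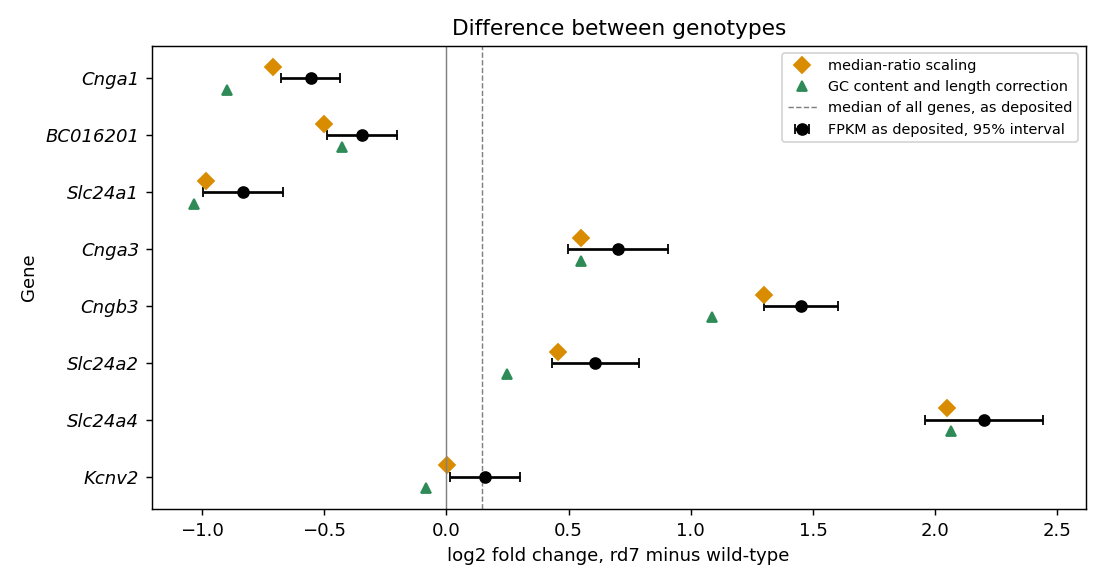
Log2 fold change of each gene, *rd7* minus wild-type, with its 95% interval on FPKM as deposited (black), with median-ratio scaling (orange) and with the adjustment for GC and length (green); the dashed line is the median of all genes as deposited, at 0.15. *Slc24a4* lies beyond 2 under each of them, and *Kcnv2* alone moves across 0.

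*Kcnv2* encodes Kv8.2, a subunit that is silent alone and joins Kv2 subunits in the inner segments of rods and cones. It lies on chromosome 19 from 27397109 to 27411669. In the mutant pools FPKM reached 130.6 and 119.6, compared with 110.9 and 113.1 in the wild-type pools. The values did not overlap, but the difference was small, with a log2 fold change of 0.16 (standard error 0.058, 95% interval 0.014 to 0.30, adjusted p = 0.0712 from limma). This is close to the median of all genes, since 51.4% of them had a lower log2 fold change. After median-ratio scaling the log2 fold change was 0.0036 (adjusted p = 0.963 from limma), and with the adjustment for GC and length it was -0.084 (adjusted p = 0.319 from limma). Without rd7 replicate 2 it was called higher, at 0.22 (adjusted p = 0.00392 from limma). A change of *Kcnv2* was thus not shown, and the interval leaves room for a rise of up to 0.30 on the log2 scale.

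The order of the levels differed between the genotypes. In wild-type retinas, *Slc24a1* was highest with a mean FPKM of 423 ± 7.58 (SD, n = 2), followed by *Cnga1* with 365 ± 0.358 (SD, n = 2), *Kcnv2* with 112 ± 1.52 (SD, n = 2), *Slc24a2* with 11.5 ± 0.659 (SD, n = 2), *Slc24a4* with 9.89 ± 0.804 (SD, n = 2), *Cnga3* with 5.52 ± 0.512 (SD, n = 2) and *Cngb3* with 4.94 ± 0.1146 (SD, n = 2). The mean of the highest gene was 85.7 times that of the lowest. Of the neighbours in this order, *Cnga3* and *Cngb3* did not differ by more than the sum of their SDs. In *rd7* retinas, *Cnga1* with 248 ± 7.63 (SD, n = 2) and *Slc24a1* with 238 ± 18.8 (SD, n = 2) overlapped, and *Kcnv2* came next with 125 ± 7.78 (SD, n = 2). *Slc24a4* followed with 45.9 ± 5.30 (SD, n = 2), above *Slc24a2* with 17.7 ± 1.125 (SD, n = 2). *Cngb3* with 13.7 ± 0.380 (SD, n = 2) stood above *Cnga3* with 9.03 ± 0.1995 (SD, n = 2). The range from highest to lowest had narrowed to 27.5 times. FPKM is a level per length of transcript, which allows only a rough order of different genes. Biases of GC content and length were not removed from these levels, so the order of close neighbours is uncertain.

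Ratios within a library do not change with its scaling. The ratio of the cone to the rod alpha subunit, *Cnga3* to *Cnga1*, was 0.0366 and 0.0361 in the mutant pools, against 0.0161 and 0.0141 in wild-type. It was 2.41-fold higher in the mutant, but *Cnga1* still made up 96.5% of the summed FPKM of the 2 alpha subunits in each mutant library, and 98.4% and 98.6% in the wild-type libraries. Between the cone subunits, the ratio of *Cnga3* to *Cngb3* was above 1 in both wild-type libraries, at 1.21 and 1.03, and below 1 in both mutant libraries, at 0.637 and 0.683. The balance thus turned towards the beta subunit. The ratio of *Cnga1* to *Cngb1* and that of *Cngb3* to *Cngb1* were not analysed here, as *Cngb1* has no value. The smallest p of an exact permutation test with 2 libraries in each group is 0.333, and the ratios were left untested.

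**Figure D3:**
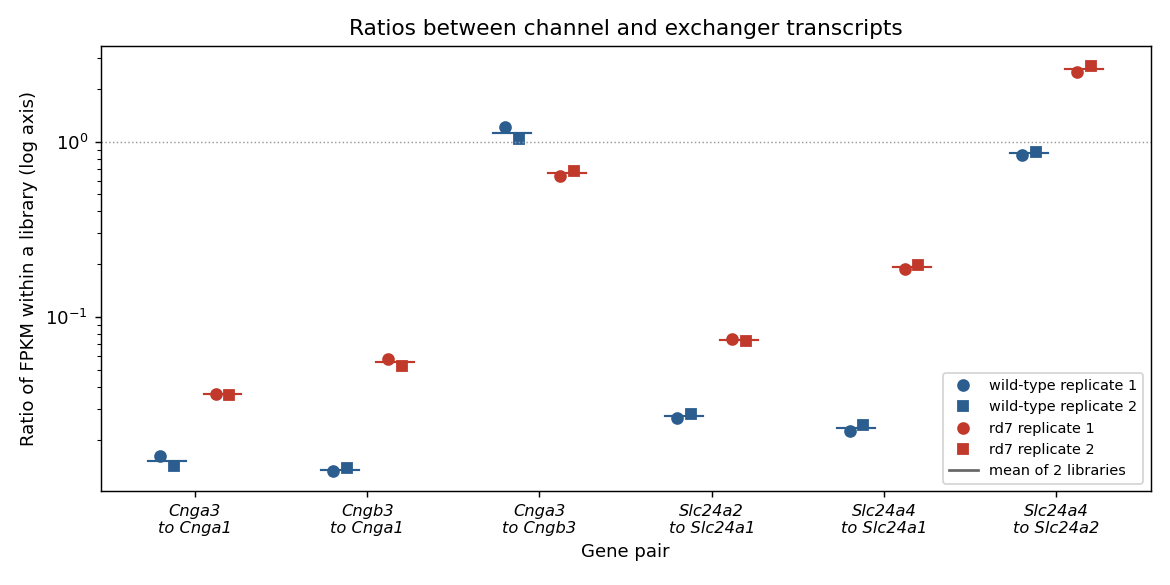
Ratio of the FPKM of 2 genes within each library on a log axis, with circles for replicate 1, squares for replicate 2 and a line at the mean of 2 libraries. *Slc24a4* to *Slc24a1* shows the widest gap between the genotypes, from at most 0.0244 in wild-type to at least 0.188 in *rd7* libraries.

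Among the exchangers, the ratio of *Slc24a2* to *Slc24a1* was 0.0751 and 0.0735 in the mutant pools, against 0.0265 and 0.0280 in wild-type, 2.72-fold higher in the mutant. That of *Slc24a4* to *Slc24a1*, added after values were seen, was 0.188 and 0.198 in the *rd7* libraries against 0.0223 and 0.0244 in the wild-type libraries, 8.25-fold higher. *Slc24a1* made up 95.34% and 95.02% of the summed FPKM of the 3 exchangers in the wild-type libraries, and 79.2% and 78.7% in the *rd7* libraries. The share of *Slc24a4* went from 2.13% and 2.32% to 14.9% and 15.6%. The rod exchanger thus remained the most abundant of the 3 in every library. Its summed FPKM with *Slc24a2* and *Slc24a4* was 438 and 451 in the wild-type libraries and 284 and 319 in the *rd7* libraries. These sums and shares leave out *Slc24a3*, at 39.6 and 41.3 FPKM in the wild-type libraries and 55.0 and 50.7 FPKM in the *rd7* libraries.

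Of the rod transduction genes outside the channel, 15 of 17 were tested, since the other 2 lacked a successful estimate in at least 1 library. Of the 15, 7 were lower and 3 higher (*Guca1a*, *Gucy2f* and *Rgs9*) in the mutant, and the median of the list was -0.023 on the log2 scale. Of all genes tested, 8.80% were called lower and 37.6% higher. Several genes of this list are also used by cones, so its counts and median do not describe rods alone. *Gnat1*, the rod transducin alpha subunit, fell by 0.79 (adjusted p = 0.0033 from limma), close to the fall of *Slc24a1*. *Guca1b* (GCAP2, which activates guanylate cyclase when calcium is low) fell most, by 1.12 (adjusted p = 0.00398 from limma). *Cnga1* and *Slc24a1* were thus among several rod transcripts that were lower, and the rod phosphodiesterase subunits were mixed. *Pde6g*, the inhibitory subunit, fell by 0.47 (adjusted p = 0.00254 from limma), while the catalytic subunits *Pde6a* (log2 fold change 0.021) and *Pde6b* (0.030) were not called. The counts of this list were the same with median-ratio scaling, while the shares of all genes became 19.6% lower and 19.7% higher.

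Of the 8 cone transduction genes outside the channel, 6 were higher in *rd7* retinas and 0 were lower by limma, also at an unadjusted p under 0.05, with a median log2 fold change of 1.53. The other 2, *Arr3* (log2 fold change 0.082) and *Opn1mw* (-0.16), were not called. Of all genes tested, 37.6% were called higher and 8.80% lower. After median-ratio scaling, *Opn1mw* fell by 0.32 (adjusted p = 0.0469 from limma). *Gnat2*, the cone transducin alpha subunit, rose by 3.17 (adjusted p = 5.02e-05 from limma) from an FPKM of 87.8 and 93.4 to 757 and 884. The rise of *Cnga3* (0.70) and that of *Cngb3* (1.45) were smaller than that of *Gnat2* and of the cone phosphodiesterase *Pde6c* (3.17). In wild-type retinas the FPKM of *Gnat2* was already well above that of *Cnga3* and *Cngb3*.

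**Figure D4:**
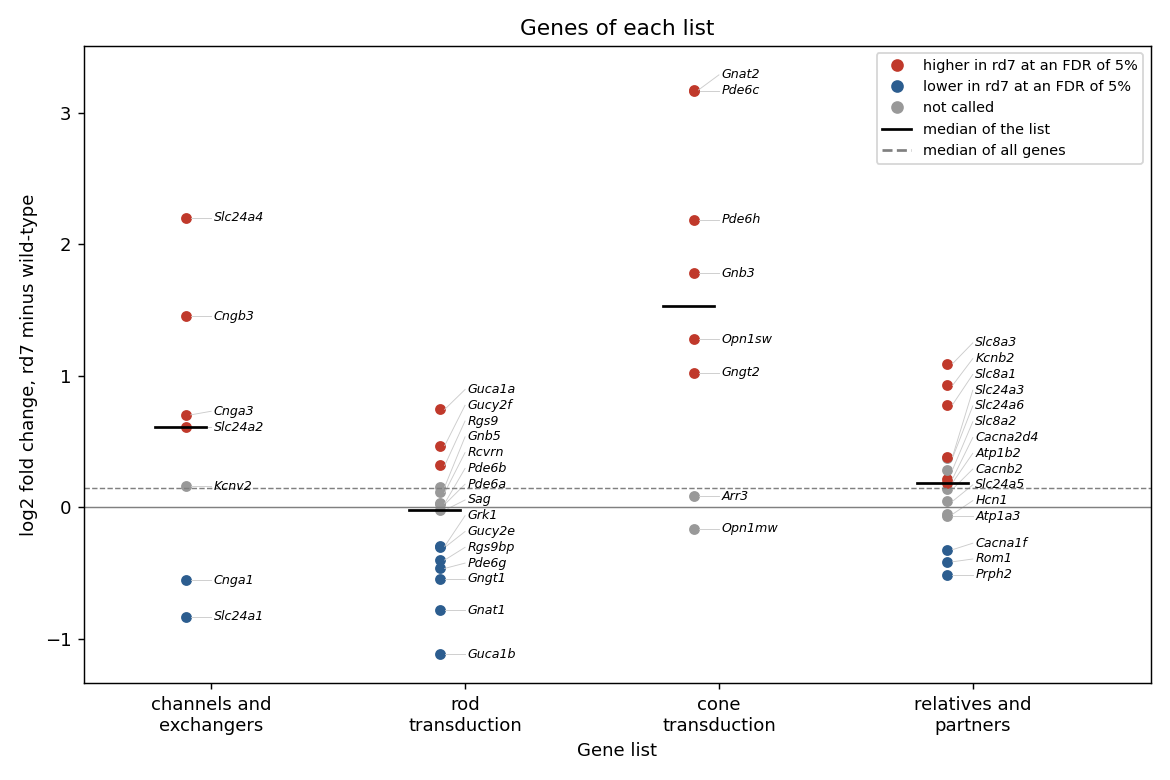
Log2 fold change, *rd7* minus wild-type, of genes tested in the 4 lists (2 relatives and partners are not drawn), coloured by its call at an FDR of 5%, with a black bar at the median of each list and a dashed line at the median of all genes. The channel and exchanger genes spread from -0.83 to 2.20, and the medians of the rod and cone lists are -0.023 and 1.53.

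The relatives and partners of these genes were followed in a list of 20. Of these, 3 (*Cnga2* and *Cnga4*, channel subunits of olfactory neurons, and *Kcnv1*) had a mean FPKM under 1 and were not tested. Of the other 17, 7 were higher and 3 lower (*Prph2*, *Rom1* and *Cacna1f*), with a median of 0.19. The share called higher and the median were near those of all genes, at 37.6% and 0.15. With median-ratio scaling, 5 were higher and 5 lower. *Prph2* and *Rom1*, the tetraspanins of the disc rim that bind the rod channel, fell by 0.51 (adjusted p = 0.00309 from limma) and by 0.42 (adjusted p = 0.00303 from limma), a size like that of *Cnga1*. *Slc24a3*, the exchanger NCKX3, rose by 0.38 (adjusted p = 0.00508 from limma). FPKM was 55.0 in rd7 replicate 1 and 50.7 in rd7 replicate 2, against 39.6 and 41.3 in wild-type retinas, above that of *Slc24a2* and *Slc24a4* in all 4.

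*Kcnb2* (Kv2.2), a partner of *Kcnv2*, was low. It measured 1.57 and 1.81 FPKM in mutant pools and 0.840 and 0.835 FPKM in wild-type pools, and rose by 0.93 in log2 terms (adjusted p = 0.00674 from limma). Both wild-type values lay under the mean FPKM of 1 required for testing, which *Kcnb2* reached only through its mutant values. Its call, which is counted among those higher in the list of relatives and partners, is limited by that. *Kcnv2* itself was not called.

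Markers of retinal cell types were counted in the same way on FPKM as deposited. Of all genes, 37.6% were called higher, with a median log2 fold change of 0.15. The markers were not counted again with median-ratio scaling, in which 19.7% of all genes were called higher. Median log2 fold changes were 0.48 for bipolar, 0.64 for horizontal, 0.24 for amacrine and 0.46 for Müller cell markers. They were 1.12 for pigment epithelium, 1.28 for cone and -0.197 for rod markers. Markers of bipolar cells were higher in 6 of 8, with a summed FPKM of 617 to 768 in *rd7* and 517 to 551 in wild-type libraries. Those of horizontal cells were higher in all 3 tested, with sums of 36.6 to 37.3 against 26.0 to 26.2. Ganglion cell markers were higher in 2 of 7, with a median log2 fold change of 0.091, below that of all genes, and their sums overlapped between the genotypes, at 595 to 661 against 604 to 620. Of the amacrine cell markers, 3 of the 5 tested were higher, with sums of 206 to 222 against 183 to 189. Müller cell markers were higher in 4 of 6, with sums of 1299 to 1354 against 1171 to 1202. Pigment epithelium markers were higher in all 4 tested, with sums of 52.1 to 57.2 against 18.5 to 31.4, and *Mlana* was at 0 in WT replicate 2. Of the cone markers 3 of 5 were higher, with sums of 1901 to 2053 against 681 to 726. Of the 4 rod markers tested, *Gnat1* and *Nrl* were lower and *Nr2e3* itself higher, and the sums of these 4 were 6250 to 6710 in *rd7* and 7217 to 7295 in wild-type libraries. These sums include *Nr2e3*, at 2493 and 1589 FPKM in *rd7* and 384.5 and 394.1 FPKM in wild-type libraries. In the sums its rise masks part of the fall of *Gnat1* and *Nrl*. The part of other cell types in the rise of *Slc24a2*, *Slc24a4* or *Cngb3* was not tested.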

How the data were processed

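The 4 RNA-seq libraries (2 per genotype) were each made from a separate pool of animals. Per the labels and the study's methods, single reads of 50 bp from 1 lane were mapped to mm9 with TopHat 1.4.1, and Cufflinks 1.3.0 gave the FPKM that the authors deposited for every gene. No read counts were used. The annotation and the strand setting are not given in the sources used here. The authors' table of fold changes, p-values and q-values was not used.

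Of the 22095 loci, 262 without a successful estimate in every library were left out. Testing took genes whose mean FPKM reached 1, as log2(FPKM + 0.1) with limma 3.58.1 in R 4.3.3 (variance trend, two-sided, Benjamini-Hochberg adjustment). The fit was also run on simulated data in which few genes changed and the groups had no common shift. That setting differs from these data, in which many genes were called. Ratios and counts were computed in Python 3.11.15. Locus starts were written with the first base counted as 1. Exonic length and GC content came from an annotation of the same build and were found for 96.9% of the genes tested. The worth of 1 read was the most frequent low FPKM times kb in genes with 1 annotated transcript of at least 2000 bases, so the depth is an estimate.

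The genes, lists and motifs were chosen with earlier results of these data known. Named are the 8 genes, *Nr2e3*, and of each other list the largest rise and fall and genes that work with a channel or exchanger, plus members of counts of 5 or fewer, named after their values were seen, as were *BC016201*, *Pde6a*, *Pde6b*, *Pde6c*, *Pde6g*, *Arr3* and *Opn1mw*. Some list genes are counted but not reported by name here. The replicate numbers showed no sign of pairing the libraries (correlation of deviations -0.0265). With 2 libraries per genotype this check cannot tell whether a batch was shared. Alternatives were other pseudocounts and filters, median-ratio scaling, quantile normalization, no variance trend, a replicate block, an FDR of 1%, each library left out, and a correction for GC content and length by natural splines.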

Additional observations from a re-analysis of the deposited data

How the results depend on the processing

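The 4 rises and 2 falls among the channel and exchanger genes were called under all 9 full refits and with each library left out. At an FDR of 1% the same counts were found. The adjusted p-values of these 6 genes from limma lay between 2.52e-07 and 0.0498 over all alternatives, the highest being that of *Slc24a2* without a filter on low FPKM. With libraries left out, the number of higher members was 4 to 5, since *Kcnv2* was called without rd7 replicate 2. *Kcnv2* turned to -0.084 after adjusting for GC and length. The replicate numbers are not known to pair the libraries, and a replicate block changed no call of a member (4 higher and 2 lower).

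Counts over all genes were 4755 higher and 1114 lower as deposited. Unfiltered, they were 2249 and 455, and they were 2489 and 2483 after median-ratio scaling, 2350 and 2404 after quantile normalization, 1513 and 1831 after adjusting for GC and length, and 2582 and 446 at an FDR of 1%. With libraries left out they were 1515 to 5410 higher and 260 to 1627 lower, lowest in both without WT replicate 1 and also low without WT replicate 2 (2261 and 359). With the replicate block they were 4508 and 1091.

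Rod transduction genes called higher numbered 1 without the filter and 1 with the GC and length correction in place of 3, and 1 to 5 with libraries left out. Those lower numbered 0 without the filter and 4 at an FDR of 1% in place of 7, and 3 to 7 with libraries left out, with 3 without either wild-type library. Cone genes called higher numbered 6 to 7 with libraries left out, and 1 was lower with median-ratio scaling (0 to 1 with libraries left out). Relatives and partners higher numbered 3 without the filter and 4 with the GC and length correction in place of 7, and 3 to 9 with libraries left out. Those lower numbered 0 without the filter and 5 with median-ratio scaling in place of 3, and 0 to 5 with libraries left out.

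On the log2 scale the difference in the ratio of *Cnga3* to *Cngb3* was -0.76 (-0.88 to -0.64 with libraries left out) and -0.53 with the GC and length correction. That of *Cnga3* to *Cnga1* was 1.27 (1.17 to 1.36), with 1.11 under quantile normalization and 1.45 under the GC and length correction. That of *Slc24a2* to *Slc24a1* was 1.45 (1.41 to 1.49), with 1.402 at a pseudocount of 1, 1.304 under quantile normalization and 1.28 under the GC and length correction. For all of these, the cause was not tested. The files give no counts, and with 2 pools per genotype the spread is known only roughly.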

Other observations

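Of the 3 sodium/calcium exchangers that need no potassium, 2 were called higher in the mutant, as were 37.6% of all genes tested. *Slc8a1* (NCX1) measured 7.45 and 7.96 FPKM in mutant pools and 4.27 and 4.63 FPKM in wild-type pools, and rose by 0.78 in log2 terms (adjusted p = 0.00159 from limma). *Slc8a3* (NCX3) measured 33.0 and 35.0 FPKM in mutant pools and 15.7 and 16.1 FPKM in wild-type pools, a rise of 1.09 (adjusted p = 0.000296 from limma). *Slc8a2* (NCX2) was not called (0.28, adjusted p = 0.11 from limma).

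The guanylate cyclase activating proteins, which sense the calcium that channel and exchanger set, went in opposite directions although their genes lie side by side on chromosome 17. *Guca1a* (GCAP1) measured 1272 and 1633 FPKM in mutant pools and 845 and 876 FPKM in wild-type pools, a rise of 0.74 (adjusted p = 0.00533 from limma). *Guca1b* (GCAP2) had 296 and 424 against 780 and 758. In both genes the 2 mutant pools differed from each other more than the 2 wild-type pools did. These genes were picked after their values were seen.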
